A study of Mus musculus with 4 samples.

Results

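Muscle fibres answer stretch and load partly through proteins of the Z-disc, the plate where actin filaments of neighbouring sarcomeres are anchored, and 10 genes of this kind were described here: Ankrd1, Ankrd2, Csrp3, Xirp1, Xirp2, Cryab, Des, Flnc, Myoz2 and Nrap. They were chosen by name, with earlier results of these data known, and a value was used only where the authors had tested the row (status OK). A row of its own was found for 9 of the 10, among 14134 tested rows of a table of 25833 rows. Des, the gene of the intermediate filament protein desmin, was listed only in a row shared with Speg. The values came from RNA sequencing of gastrocnemius, a calf muscle, from C57BL/6J mice of 8 weeks of age, with 2 WT libraries as controls and 2 libraries from mice with a knockout of Fundc1 in muscle (Fundc1-MKO). Fundc1 encodes a mitophagy receptor of the outer mitochondrial membrane. What drove the deletion in muscle, which allele the controls carried and the sex of the mice were not given in the sources used here.

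As background, the muscle ankyrin repeat proteins (MARPs, here Ankrd1 and Ankrd2) bind titin in the sarcomere and can move to the nucleus, and their transcripts are known to rise when muscle is stretched or overloaded. Csrp3 (muscle LIM protein) and Myoz2 (calsarcin-1) sit at the Z-disc and are best known from slow fibres and heart. Flnc, Xirp1, Xirp2 and Nrap encode actin-binding proteins of Z-discs, of sites of myofibril repair and of the junctions between myofibrils and the membrane. Cryab encodes alphaB-crystallin, a small heat shock protein that protects desmin and other filament proteins.

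The table gave 1 FPKM (fragments scaled to transcript length and library size) per group with an interval made by the authors, not a value per library. The spread between animals and the depth of each library are therefore unknown here. A gene is said to have risen or fallen only where its q (the p-value adjusted over the tested rows) was under 0.05 in the authors' deposited table. The SE of a log2 ratio was derived from the authors' intervals. In whole muscle, fewer cells of a type and less RNA per cell cannot be told apart. Fundc1 itself stood at 20.1 FPKM in WT (interval 16.3 to 23.8) and at 4.23 in Fundc1-MKO (3.15 to 5.31), so the group labels and the targeted gene went the same way. The tissue was checked by 10 markers of skeletal muscle. Of these 7, among them Myh4, Ckm and Acta1, were marked by the authors as having too many fragments, with no value that could be used. The other 3 did not pass q in the authors' deposited table. Pvalb, which encodes parvalbumin, stood at 5705 FPKM in WT and 6219 in Fundc1-MKO, the fast myosin gene Myh1 at 670 and 620 FPKM, and the myosin light chain gene Myl1 at 6831 and 6604 FPKM.

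All 9 measured genes stood at lower FPKM in Fundc1-MKO than in WT, and 3 of them fell: Ankrd2, Csrp3 and Cryab. Because the 9 were chosen with earlier results of these data known, the shares of tested rows given next are a description, not a test. Over all tested rows 3.17% passed q in either direction in the authors' deposited table, with 2.25% lower and 0.92% higher in Fundc1-MKO. A lower FPKM in Fundc1-MKO at any q was found in 56.6% of all tested rows. All 9 genes were abundant, and a background at their levels was added after the levels were seen: among the 1519 tested rows with a mean FPKM of at least 50, 2.11% fell, 0.79% rose and 47.5% were lower at any q. With all 9 at lower FPKM, no rule on p, q or intervals could have called a member higher. The median log2 ratio of FPKM + 1 was -0.24 for the 9 genes and -0.02 for all tested rows. The fold of WT over Fundc1-MKO ran from 1.04 for Nrap to 1.42 for Ankrd2.

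The calls rest on the authors' p-value. When the authors' test statistic was read against a normal distribution and adjusted over the same rows, none of the 9 passed (smallest adjusted p = 0.570) and 2 had an unadjusted p under 0.05; 0.199% of rows with a finite statistic passed that reading. The authors' intervals of the groups lay apart for 1 of the 9, Ankrd2, and for 0.715% of all tested rows.

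**Figure D1:**
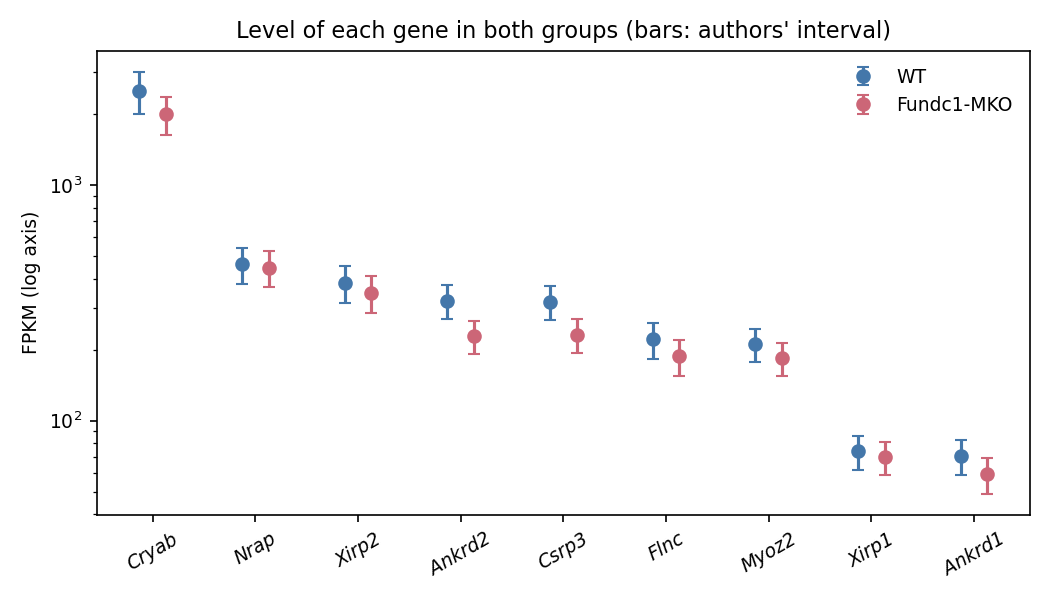
FPKM (log axis) of the 9 measured genes in WT and Fundc1-MKO, ordered by the WT level; points are the authors' group values and bars the authors' intervals. Cryab stands above all others, at 2512 and 2001 FPKM, and the intervals of the groups lie apart for Ankrd2 alone among the 9.

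The promoters of Ankrd2 and Csrp3, which fell most, are shown with that of Ankrd1, the relative of Ankrd2. The sequences are the 250 bases before the RefSeq transcription start, on GRCm38.p6, on the strand of the gene. They span chr19:42035777-42036026 on the plus strand, chr7:48848052-48848301 on the minus strand and chr19:36119845-36120094 on the minus strand. The GENCODE M21 annotation places Ankrd1 from 36111961 to 36120099, so the whole printed Ankrd1 stretch lies inside that annotated gene. It places the start of Ankrd2 at 42036000, so the end of the printed Ankrd2 stretch lies inside that gene. Capitals mark matches, on either strand, to the E-box (CANNTG), a motif bound by myogenic factors such as MyoD, and to the M-CAT element (CATTCC, which reads GGAATG on the other strand), a motif bound by TEAD factors.
Ankrd2: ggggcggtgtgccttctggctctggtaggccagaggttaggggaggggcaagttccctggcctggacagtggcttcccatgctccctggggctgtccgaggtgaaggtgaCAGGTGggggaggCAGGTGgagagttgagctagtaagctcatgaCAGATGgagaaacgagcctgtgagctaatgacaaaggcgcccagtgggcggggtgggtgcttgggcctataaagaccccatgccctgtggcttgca
Csrp3: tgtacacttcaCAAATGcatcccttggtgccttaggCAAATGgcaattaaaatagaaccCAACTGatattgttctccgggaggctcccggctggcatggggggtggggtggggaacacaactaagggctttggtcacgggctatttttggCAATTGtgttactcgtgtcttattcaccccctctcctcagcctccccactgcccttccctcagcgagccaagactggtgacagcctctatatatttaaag
Ankrd1: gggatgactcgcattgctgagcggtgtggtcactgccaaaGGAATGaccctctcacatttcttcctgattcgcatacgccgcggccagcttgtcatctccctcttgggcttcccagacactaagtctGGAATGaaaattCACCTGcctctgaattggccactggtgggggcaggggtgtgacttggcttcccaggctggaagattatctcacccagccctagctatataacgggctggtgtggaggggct

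The printed stretch of Ankrd2 held 3 E-box matches and no M-CAT match. That of Csrp3 held 4 E-box matches and no M-CAT match, and that of Ankrd1 held 1 E-box match and 2 M-CAT matches. A promoter was listed for 8 of the 10 genes, all but Cryab and Xirp1. In windows from 250 bases before to 50 after the start, an E-box match was found in 7 of these 8 genes and in 72.3% of all 32851 windows of that length. An M-CAT match was found in 2 of the 8, Ankrd1 and Flnc, and in 14.7% of all windows. A match to the MEF2 site was found in Xirp2 and Myoz2 and in 3.19% of all windows. No window of the 8 matched the CArG box, the site of serum response factor, which 1.63% of all windows held. The TATA box (TATAAA) was matched in Ankrd2 only among the 8, and in 13.6% of all windows. No match overlapped a match of another of these 5 motifs in the 8 windows.

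Of the muscle ankyrin repeat genes, Ankrd2 fell and Ankrd1 did not pass. Ankrd2 lies on chromosome 19 from 42036038 to 42045110 (mm10, plus strand, protein-coding). It stood at 323 FPKM in WT (interval 271 to 375) and at 228 in Fundc1-MKO (192 to 264). The WT level was thus 1.42-fold the Fundc1-MKO level, and the intervals did not overlap. The log2 ratio was -0.50 with an SE of 0.16, and q was 0.00338 in the authors' deposited table. Ankrd1 (chromosome 19, 36111965 to 36119844, minus strand) is better known from heart and injured muscle, and it had the lowest level of the 9 genes. It stood at 70.6 FPKM in WT (58.9 to 82.4) and at 59.1 in Fundc1-MKO (49.0 to 69.3), a log2 ratio of -0.26 with an SE of 0.17. Its q of 0.0664 in the authors' deposited table missed the threshold, with an unadjusted p of 0.0025. The relative Ankrd23 was the most abundant gene of the family, with 82.4% of the summed FPKM of Ankrd1, Ankrd2 and Ankrd23 in WT. Ankrd23 stood at 1840 FPKM in WT (1513 to 2167) and at 1621 in Fundc1-MKO (1335 to 1907), with q = 0.327 in the authors' deposited table. All 3 genes of the family were at lower FPKM in Fundc1-MKO, and only the call of Ankrd2 passed; whether the ratios of the 3 differ was not tested.

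Of the Z-disc adaptor genes, Csrp3 fell and Myoz2 did not pass. Csrp3 lies on chromosome 7 from 48830398 to 48848051 on the minus strand. It stood at 319 FPKM in WT (268 to 371) and at 231 in Fundc1-MKO (194 to 268), 1.38-fold lower. The lower WT bound and the upper Fundc1-MKO bound nearly met, and the intervals overlapped. The log2 ratio was -0.46 with an SE of 0.16, and q was 0.00338 in the authors' deposited table. Csrp3 made up 93.0% of the summed FPKM of the cysteine- and glycine-rich protein genes in WT. Its relatives Csrp1 and Csrp2, widely expressed LIM protein genes, were at 19.2 and 4.93 FPKM in WT and at 18.5 and 4.77 in Fundc1-MKO, with q of 0.918 and 0.975 in the authors' deposited table.

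Myoz2 encodes a Z-disc protein that binds alpha-actinin and the phosphatase calcineurin, and it lies on chromosome 3 from 123006206 to 123034987 on the minus strand. Myoz2 stood at 212 FPKM in WT (178 to 246) and at 184 in Fundc1-MKO (155 to 214), a log2 ratio of -0.20 with an SE of 0.16. Its q was 0.185 and its unadjusted p 0.01425 in the authors' deposited table, and the intervals overlapped. Myoz1, the calsarcin gene of fast fibres, went the other way, at 1484 FPKM in WT (1234 to 1733) and 1726 in Fundc1-MKO (1433 to 2019), with q = 0.158 in the authors' deposited table. Myoz3 stood at 46.9 and 45.3 FPKM. Neither Myoz1 nor Myoz2 passed, and their difference was not tested.

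Cryab fell and was the most abundant of the 9 genes. Cryab lies on chromosome 9 from 50751072 to 50757196, where the annotation places it on the plus strand. It stood at 2512 FPKM in WT (2007 to 3016) and at 2001 in Fundc1-MKO (1634 to 2367), 1.26-fold lower. The intervals overlapped widely, the log2 ratio was -0.33 with an SE of 0.20, and q was 0.0371 in the authors' deposited table. Hspb2, another small heat shock gene, lies head to head with Cryab on the opposite strand and shares the same locus in the table, and 17.0% of the exonic bases of Cryab lie in exons of Hspb2. Whether counting used strand was not given in the sources used here. The split of reads between Cryab and Hspb2 is therefore uncertain. Hspb2 stood at 123 FPKM in WT and 121 in Fundc1-MKO, with wide intervals of 12.6 to 234 and 21.9 to 220. Among all 7 measured small heat shock genes of the family, 6 were at lower FPKM in Fundc1-MKO and 3 fell in the authors' deposited table: Cryab, Hspb6 and Hspb7. Hspb7, a cardiovascular small heat shock gene that binds filamin C, fell 1.37-fold from 411 FPKM (343 to 480) to 301 (252 to 350). Hspb6 fell 1.22-fold from 1303 to 1068 FPKM.

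The shared row of Des and Speg did not pass. Speg encodes a kinase of striated muscle, and the locus spans chromosome 1 from 75359145 to 75432306. The row stood at 1864 FPKM in WT (1502 to 2226) and at 1732 in Fundc1-MKO (1399 to 2066), with q = 0.771 in the authors' deposited table. It gives no value for desmin alone, so Des is not counted among the 9.

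The actin-binding genes did not pass. Flnc encodes the muscle filamin that crosslinks actin at the Z-disc and the membrane, and it lies on chromosome 6 from 29428445 to 29461888 on the plus strand. Flnc stood at 221 FPKM in WT (182 to 261) and at 187 in Fundc1-MKO (155 to 219), a log2 ratio of -0.24 with an SE of 0.18. Its q was 0.120 and its unadjusted p 0.0066 in the authors' deposited table. The widely expressed filamin gene Flna was at 11.9 FPKM in WT and at 11.3 in Fundc1-MKO.

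Xirp2 and Xirp1 encode the Xin proteins, which bind actin and filamin C and mark sites of myofibril damage and remodelling. Xirp2 (chromosome 2, 67446002 to 67526606, plus strand) stood at 384 FPKM in WT (315 to 454) and at 349 in Fundc1-MKO (287 to 412), with q = 0.562 in the authors' deposited table. Xirp1 (chromosome 9, 120013644 to 120023885, minus strand) stood at 74.1 FPKM in WT (61.9 to 86.3) and at 70.0 in Fundc1-MKO (58.6 to 81.4), with q = 0.807 in the authors' deposited table. Their log2 ratios of -0.14 and -0.08 were smaller than their SEs of 0.18 and 0.17, and the intervals of the groups overlapped for both.

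Nrap, the nebulin-related anchoring protein gene known from myofibril assembly and the myotendinous junction, differed least. The table places it on chromosome 19 from 56287938 to 56390787, a span that also holds Habp2, while the annotation places Nrap from 56320035 to 56390037 on the minus strand. Nrap stood at 461 FPKM in WT (381 to 540) and at 445 in Fundc1-MKO (368 to 522), with q = 0.934 in the authors' deposited table. Its log2 ratio of -0.05 had an SE of 0.18. Habp2 was untested, at 0.0779 and 0.0641 FPKM. Exons of genes on the opposite strand cover 6.83% of the exonic bases of Nrap.

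**Figure D2:**
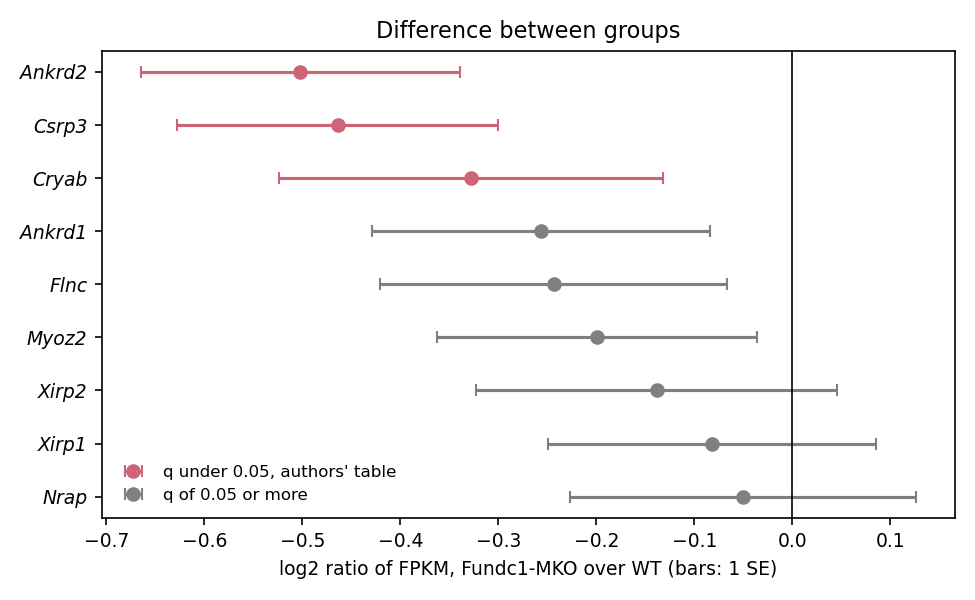
log2 ratio of FPKM in Fundc1-MKO over WT for the 9 genes, with bars of 1 SE derived from the authors' intervals; colour marks q under 0.05 in the authors' deposited table. All 9 ratios lie below 0, from -0.50 for Ankrd2 to -0.05 for Nrap, and the bars of Xirp2, Xirp1 and Nrap cross 0.

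In WT the order of levels was Cryab, Nrap, Xirp2, Ankrd2, Csrp3, Flnc, Myoz2, Xirp1 and Ankrd1, over a 35.6-fold range of FPKM. Among neighbours in this order, the authors' intervals lay apart between Cryab and Nrap, between Csrp3 and Flnc, and between Myoz2 and Xirp1, and they overlapped for the other 5 pairs. In Fundc1-MKO the order was the same except that Csrp3 stood above Ankrd2, at 231 and 228 FPKM with overlapping intervals. In that order the intervals lay apart between Cryab and Nrap, between Xirp2 and Csrp3, and between Myoz2 and Xirp1, and those of Ankrd2 and Flnc overlapped. The lowest of the 9, Ankrd1, was above 92.1% of all tested rows in WT and above 90.8% in Fundc1-MKO. The 9 values summed to 4577 FPKM in WT and 3755 in Fundc1-MKO, or to 2065 and 1754 without Cryab.

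**Figure D3:**
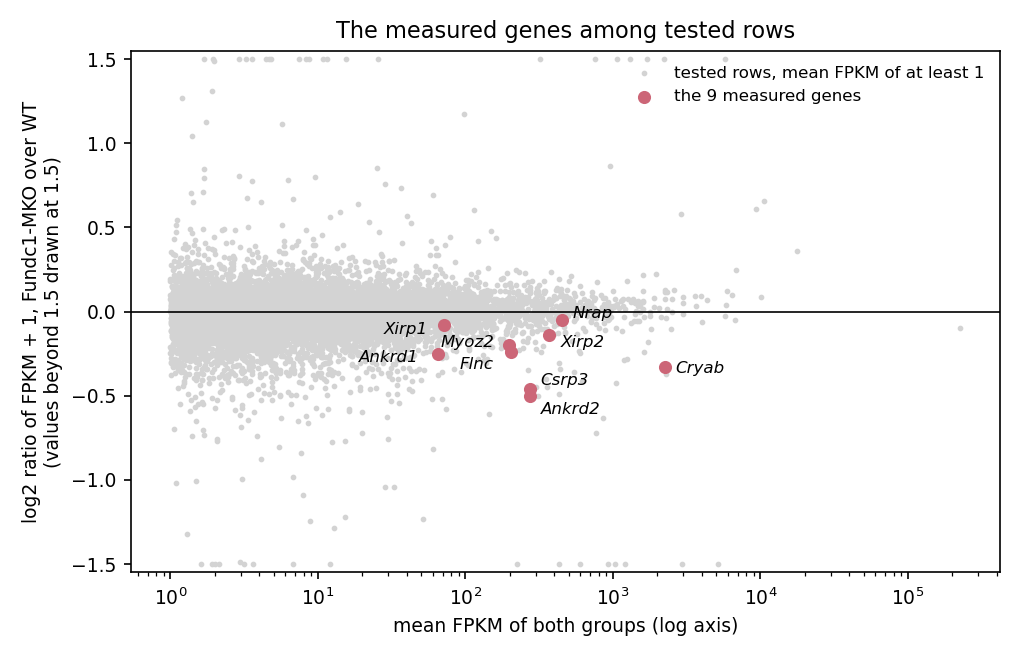
log2 ratio of FPKM + 1 in Fundc1-MKO over WT against the mean FPKM of both groups (log axis), with tested rows of a mean FPKM of at least 1 in grey and the 9 genes in red. The 9 genes lie at the right of the cloud, all below 0. Over all tested rows, those not drawn included, Ankrd2 had a lower ratio than all but 0.729% and Csrp3 than all but 0.948%. The added 1 understates the ratios of low rows in that ranking. The 9 were chosen with earlier results of these data known, so these ranks are a description.

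**Figure D4:**
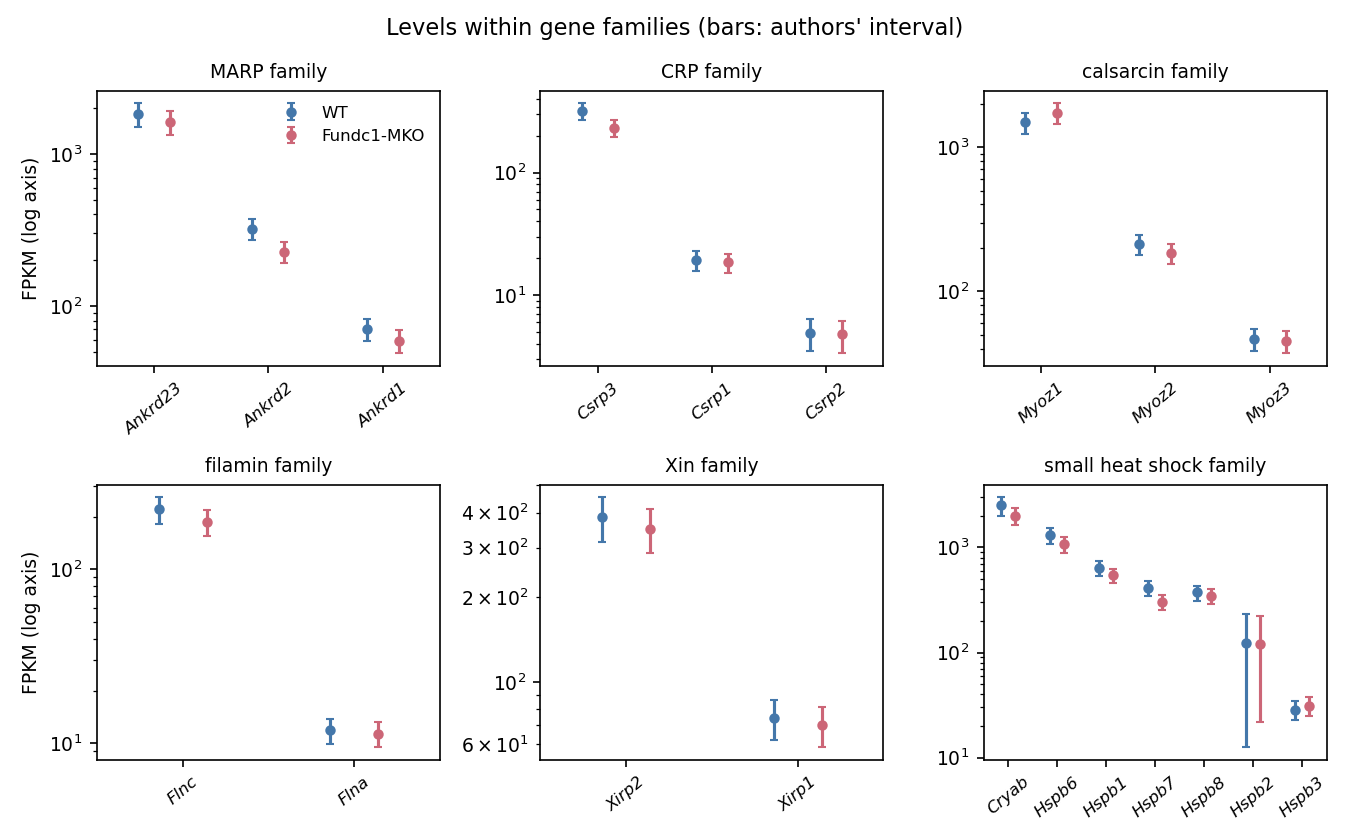
FPKM (log axis) of genes in 6 families that the measured genes other than Nrap belong to, in WT and Fundc1-MKO. Points are the authors' group values and bars the authors' intervals. Ankrd23 and Myoz1 are the most abundant genes of their families, at 1840 and 1484 FPKM in WT, while Csrp3, Xirp2 and Cryab lead theirs and Flnc stands above Flna.

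Other genes of the sarcomere and of mechanical signalling were taken from 9 lists, written with earlier results of these data known. They held 136 distinct tested genes besides the 9. Of these 99 were at lower FPKM in Fundc1-MKO, 21 fell and none rose in the authors' deposited table. Of those at higher FPKM 3 had a p before adjustment under 0.05 there, and none passed by the normal reading. Over all tested rows 56.6% were at lower FPKM in Fundc1-MKO, 2.25% fell and 0.92% rose. Because the lists were written in that way, their counts are a description, not a test. Of 27 tested genes of the Z-disc scaffold 3 fell, with a median log2 ratio of -0.06. Fhl1, a four-and-a-half LIM protein gene, fell 1.34-fold from 1203 to 897 FPKM. Actn2, the alpha-actinin that crosslinks actin in the Z-disc, fell 1.24-fold from 480 to 388 FPKM, and Lmod2, a leiomodin of the thin filament, fell 1.20-fold from 143 to 119 FPKM. Itgb1bp2, the gene of melusin, a chaperone-like protein that binds integrin, was at 89.6 and 76.3 FPKM with q = 0.106 in the authors' deposited table. Actn3, Neb and Ttn were among the rows with too many fragments.

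Of 13 M-band and titin-linked genes 2 fell and 5 were at lower FPKM, with a median log2 ratio of 0.03. Myom3, a myomesin of the M-band, fell 1.30-fold from 30.4 to 23.3 FPKM, and Trim63, the gene of the titin-binding ligase MuRF1, fell 1.27-fold from 298 to 234 FPKM. Mybpc1 and Mylk2 did not pass, at 653 and 551 FPKM and at 258 and 286 FPKM. Of 20 intermediate filament and costamere genes 3 fell, with a median of -0.09. Vim, the gene of vimentin, fell 1.29-fold from 105 to 81.4 FPKM. Itga7, the laminin-binding integrin of muscle, fell 1.21-fold from 48.4 to 40.1 FPKM, and Jup, the gene of plakoglobin, fell from 20.4 to 16.8 FPKM. Vcl, the gene of vinculin, stood at 24.1 and 20.2 FPKM with q = 0.135 in the authors' deposited table.

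Of 14 genes of the chaperone route that removes damaged filamin 2 fell, Hspb7 and Hspb6, with a median of -0.12. Hspb1 and Hspa1a did not pass, at 640 and 545 FPKM and at 9.97 and 8.39 FPKM. Of 9 relatives of the measured genes Hspb6 fell, with a median of -0.06. Of 23 genes of SRF, MRTF and YAP signalling 3 fell, with a median of -0.05. Actc1, the cardiac actin gene, fell 1.78-fold from 77.6 to 43.6 FPKM, the early gene Egr1 fell 1.67-fold to 5.46 FPKM, and Fos fell 1.47-fold to 5.05 FPKM. Ctgf, a common YAP target, was at 13.3 and 10.9 FPKM with q = 0.0763 in the authors' deposited table.

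Of 14 genes of the slow fibre list 13 were at lower FPKM, with a list median of -0.12. Only Myh2 fell, and it encodes the myosin of type IIa fibres, not of slow fibres. Myh2 fell 1.27-fold from 487 to 384 FPKM. Mb, Casq2 and Tnni1 did not pass, at 1770 and 1499, at 46.5 and 41.1 and at 260 and 230 FPKM in WT and Fundc1-MKO. Of 14 genes of denervated or developing muscle 6 fell, with a median of -0.23, among them Actc1, Runx1, Chrna1 and Myh3. Runx1, which encodes a transcription factor and responds to denervation, fell 1.45-fold to 1.84 FPKM, the acetylcholine receptor gene Chrna1 fell 1.32-fold to 10.1 FPKM, and the embryonic myosin gene Myh3 fell 1.27-fold to 4.18 FPKM. Of 9 tendon and myotendinous genes 2 fell, with a median of -0.14: Thbs4, a thrombospondin, from 35.0 to 26.9 FPKM and Fmod, a collagen-binding proteoglycan, from 39.7 to 32.3 FPKM. Col12a1 was at 0.764 and 0.591 FPKM and Col22a1, a collagen of the myotendinous junction, was higher in Fundc1-MKO, at 1.74 and 2.12 FPKM; both missed q, at 0.0626 and 0.122 in the authors' deposited table.

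**Figure D5:**
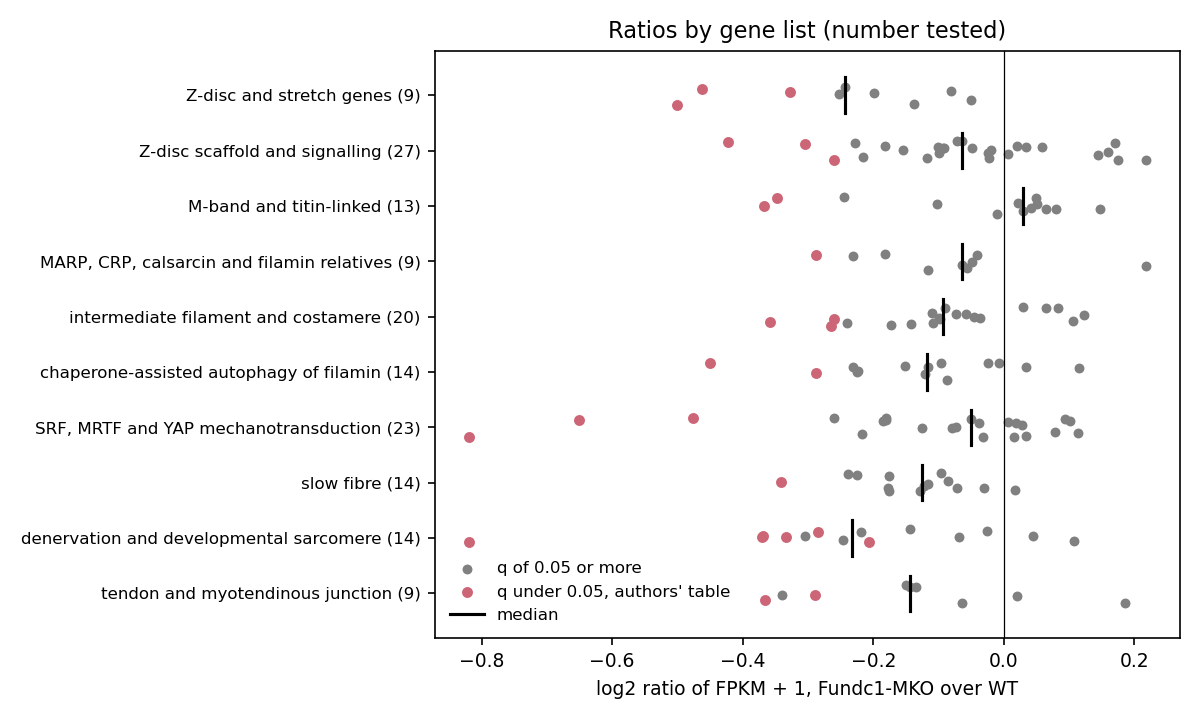
log2 ratio of FPKM + 1 in Fundc1-MKO over WT for the 9 genes and for 9 further lists; points are genes, black lines medians, and colour marks q under 0.05 in the authors' deposited table. All coloured points lie below 0, and the medians run from -0.24 for the 9 genes to 0.03 for the M-band list.

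Markers of other cell types also differed between the groups, and their part in the values above was not tested. These markers were written with earlier results of these data known. Over all tested rows 56.6% were at lower FPKM in Fundc1-MKO and 2.25% fell. All 11 macrophage markers were at lower FPKM in Fundc1-MKO and 6 fell, with sums of 288 FPKM in WT and 227 in Fundc1-MKO. Of 11 fibroblast and matrix markers 10 were lower and 7 fell, with sums of 304 and 262 FPKM. All 6 epidermal markers were lower and 3 fell, with sums of 8.02 and 1.81 FPKM. Of 8 smooth muscle and pericyte markers 3 were lower, and of 5 endothelial markers 0 were lower. Neither of these lists held a gene that passed q, and each held 1 gene whose p before adjustment was under 0.05 in the authors' deposited table. Of 8 heart markers 3 were tested; Actc1 fell, Tnnt2 was at 3.32 and 2.91 FPKM, and the alpha-myosin gene Myh6 was at 0.358 FPKM in both groups. No marker of these lists was listed at 0 in a tested row.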

How the data were processed

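Libraries were made with a NEBNext kit from flash-frozen gastrocnemius, 2 WT and 2 Fundc1-MKO, per the labels' protocols. Tools named in the submitters' processing notes, without roles, are TopHat2 2.0.14, Cufflinks 2.2.1, FastQC 0.11.3 and bcl2fastq, with the build mm10. The deposited table gives 1 FPKM value per group with the bounds of an interval, computed by the authors over both libraries, per the file headers. Also deposited are a score (the test statistic), a p-value and a q-value per row. The annotation, strand setting, scaling and depth were not given in the sources used here.

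Single-library values were not used here, so the intended limma fit could not be made, and the call was instead the authors' q, under 0.05. Ratios were computed from FPKM; medians of lists use FPKM + 1, so changes of low genes are understated. The distance from an FPKM to its bound was taken as 2 SD to derive an SE: the log2 ratio over that SE came within 1% plus 0.001 of the authors' statistic in 100.0% of 14100 rows. Starts of loci have 1 added, so positions count from 1. Strand and exons are from GENCODE M21 (the assembly of mm10) and promoters from RefSeq on GRCm38.p6. A symbol in several rows was taken from the row with the highest mean.

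The members and lists were chosen with earlier results of these data known. The genes named were the members, their close relatives and up to 4 genes per further list with the lowest q. In all, 1 gene of the lists was left out of every count and is not reported here. Cell type markers were summarised as counts and sums. The adjustment was tested on simulated data. Python 3.11.15, numpy 2.4.6, pandas 2.3.3, scipy 1.17.1 and matplotlib 3.10.9 were used. Labels call the libraries biological replicates.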

Additional observations from a re-analysis of the deposited data

How the results depend on the processing

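The 3 falls rest on the p-value of the authors' deposited table: with its statistic read as normal and adjusted, 0 of the 9 genes passed and 1 of the 136 further genes, against 21, and with non-overlapping intervals as the call 1 of the 9 and 2 further genes passed. The cause of that gap was not tested. At a q under 0.01 the counts were 2 and 14, and at a q under 0.1 they were 4 and 24. After adjustment over rows whose mean FPKM was 1 or more, they were 3 and 21. The share of all tested rows that passed in each of these ways is not given here. How these counts compare with a table-wide rate is therefore unknown. The median log2 ratio of the 9 genes stayed between -0.25 and -0.24 under pseudocounts of 0.1 and 5 and none, a minimum FPKM of 5, and groups scaled to equal medians or totals. All 54 recomputed ratios of single genes were below 0 and moved by under 1 SE, but these settings could hardly have given another outcome. A pseudocount cannot change the sign of a ratio, and the minimum of 5 FPKM removed none of the 9 genes. The scalings shifted log2 ratios by only 0.00031 for equal medians and -0.0040 for equal totals. No paired analysis was possible because the table holds 1 value per group, and for the same reason no library could be left out. Depth is unknown.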

Other observations

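Among the 421 tested symbols with a mean FPKM of at least 200, a minimum chosen after the values were seen, 15 fell and none rose in the authors' deposited table. The 15 that fell include 3 of the 6 genes described above that reach that level, Ankrd2, Csrp3 and Cryab, and the further list genes Hspb7, Fhl1, Trim63, Myh2, Actn2 and Hspb6. The other 6 were the metallothionein genes Mt1 and Mt2, the fatty acid-binding protein gene Fabp3, the pyruvate dehydrogenase kinase gene Pdk4, Frmd8, and Mustn1, a small muscle and skeletal nuclear protein gene. Mustn1 stood at 362 FPKM in WT and 256 in Fundc1-MKO, and the row named Frmd8 at 346 and 253 FPKM. These ratios were close to those of Ankrd2 and Csrp3, at 323 and 228 FPKM and at 319 and 231 FPKM. The Frmd8 row spans chromosome 19 from 5823562 to 5875252. Whether other genes in that span share its reads was not examined. Of the symbols of that level at higher FPKM in Fundc1-MKO 13 had a p before adjustment under 0.05 in the authors' deposited table. By the normal reading of the statistic 1 of the 15 falls passed, Mt1, and 1 symbol passed as higher, Mir3960. Mir3960 did not pass q in the authors' deposited table, and how reliable its level is was not examined.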
